A study of Homo sapiens with 12 samples.

Results

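FTO and ALKBH5 are 2 human demethylases, or erasers, of N6-methyladenosine (m6A) in messenger RNA, and both were followed by gene name through the deposited tables of an FTO knockdown experiment. They are 2 of 6396 genes with expression values. Every peak listed under either gene name, or called on either gene's model, was taken. FTO had 2 peaks in the knockdown list and 6 in the control list, and ALKBH5 had 4 in the knockdown list and 3 in the control list. In the authors' deposited table of differential peaks, FTO had 1 row and ALKBH5 had 3, among 8687 rows with a gene name. HGC27, the line used, is an established line of human gastric carcinoma. One set of cells carried an FTO knockdown (titles FTO-KO and sh, genotype FTO-KO) and the other set were negative controls (titles WT and Con, genotype WT). Each condition had 3 libraries of RNA fragments bound by an m6A antibody (IP) and 3 libraries of the fragments before enrichment (input), 12 in all. The labels name no hairpin sequence or control hairpin, and they do not say whether numbers 1 to 3 stand for separate cultures or separate hairpins. The p-values therefore measure the spread between these libraries, which may be technical.

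m6A is placed on adenosines of messenger RNA in the nucleus by a methyltransferase complex built around METTL3 and METTL14, is bound by reader proteins such as the YTH family, and can be removed again by FTO and ALKBH5. Both erasers belong to the AlkB family of dioxygenases, which use iron and 2-oxoglutarate to oxidise the methyl group. FTO also acts on m6Am, the methylated adenosine that can stand next to the cap of a messenger RNA, and antibodies against m6A bind m6Am too. ALKBH5 acts mainly on m6A in the nucleus. Because each eraser is itself made from a messenger RNA, its transcript can carry the mark that its protein removes.

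Expression was given as FPKM, a count of input fragments scaled to transcript length and library size, so levels can be set side by side between genes. The FPKM of the 6396 genes summed to between 83712.5 and 86902.1 in the knockdown libraries and between 74288.9 and 78460.7 in the controls, and sequencing depth was unknown. FPKM were present for genes with a differential m6A peak only. Of 10 epithelial and gastric markers, MUC1 was the single one with FPKM (means of 1.43 in knockdown and 1.24 in control cells), and 2 of the 10 had a peak in the knockdown list against 3 in the control list. None of 4 immune markers had a peak in either list, 3 of 4 fibroblast markers had one in the knockdown list and 4 of 4 in the control list, and for endothelial markers it was 1 of 2 in each. The fibroblast marker COL1A1, a collagen I chain, averaged 147 FPKM in knockdown and 169 FPKM in control cells (limma log2 change -0.20, adjusted p = 0.0108). A lower level was called for 37.9% of all genes tested, and the call of COL1A1 was not checked under other scalings. Of the mesenchymal genes VIM and CDH2, neither had a peak in the knockdown list, and VIM had one in the control list. The part of such genes in the results was not tested.

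FTO RNA was much lower after knockdown. It stood at 0.786, 0.83 and 0.765 FPKM in the knockdown libraries, against 5.48, 5.68 and 5.52 FPKM in the control libraries. The highest knockdown library lay far below the lowest control, and the spread inside each group was small beside the gap. The means were 0.793 ± 0.0335 FPKM in knockdown and 5.56 ± 0.108 FPKM in control cells (SD, n = 3 each), so 14.3% of the control level remained. The fit covered the 4515 genes that averaged 1 FPKM or more. On the log2(FPKM + 1) scale, limma put the change of FTO at -1.87 (SE 0.0465, Benjamini-Hochberg adjusted p = 4.99e-07). That fit called 62.4% of its genes in either direction and 37.9% as lower, so a call on its own separates few genes here. Its 1107 higher and 1712 lower calls were 1425 and 1291 under quantile normalization, and 1507 and 1213 with medians centred. Of the 4515 genes, those with a q under 0.05 in the authors' deposited table numbered 1364 higher and 845 lower. By size, FTO's fall ranked 3 among the 4515 genes. FTO entered the test through its control level, since its knockdown mean was under 1 FPKM, and without the filter its adjusted p was 2.38e-05. In bulk RNA, fewer cells that make a transcript and less of it per cell cannot be told apart. FTO is the gene that was targeted, so its level checks the labels, and all 6 input libraries matched theirs.

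ALKBH5, which the labels do not name as a target, was slightly lower in the same libraries. It stood at 54.3, 52.2 and 54.1 FPKM after knockdown, against 58.4, 58.2 and 63.9 FPKM in controls. The groups did not overlap, but they came within a few FPKM of each other, and control library 3 was the highest of all. Values of the knockdown libraries all below the controls were found in 40.5% of the tested genes. The means were 53.6 ± 1.17 FPKM in knockdown and 60.2 ± 3.22 FPKM in control cells (SD, n = 3 each), a 1.12-fold lower level. Its change on the log2(FPKM + 1) scale was -0.16 (SE 0.0472, limma adjusted p = 0.0169). A larger fall was seen in 37.7% of tested genes, and the median change of all of them was -0.07. The call was lost when libraries were centred on their medians (log2 change -0.07, adjusted p = 0.288), and in the absence of knockdown library 2 (adjusted p = 0.06). The authors' deposited table gave ALKBH5 a q-value of 0.909, where 38.2% of the genes in it had a q under 0.05.

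The erasers differed widely in level, and the knockdown widened the gap. FTO was more abundant than 28.5% of the 6396 genes after knockdown and than 64.7% of them in controls. For ALKBH5 the shares were 97.4% after knockdown and 97.9% in controls. The FPKM of ALKBH5 was 69.1, 62.9 and 70.8 times that of FTO in the knockdown libraries, against 10.7, 10.2 and 11.6 times in the controls. FTO made up 1.43%, 1.56% and 1.39% of the summed eraser FPKM in knockdown libraries, and 8.57%, 8.90% and 7.95% in control libraries. This ratio is formed within a library and does not depend on the scaling between libraries. The log2 ratio of FTO over ALKBH5 differed by -2.64 (knockdown minus control), with no overlap between groups (two-sided exact permutation test, p = 0.1, the smallest that 3 against 3 libraries allow). FTO was the targeted gene, so a lower ratio was built into the design and largely restates its fall. The summed FPKM of both genes was 54.3 ± 1.16 in knockdown and 65.7 ± 3.2 in control cells (SD, n = 3 each), a difference of -11.4 FPKM (exact permutation p = 0.1). Unlike the ratio, this sum depends on the scaling between libraries, and most of it is ALKBH5.

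**Figure D1:**
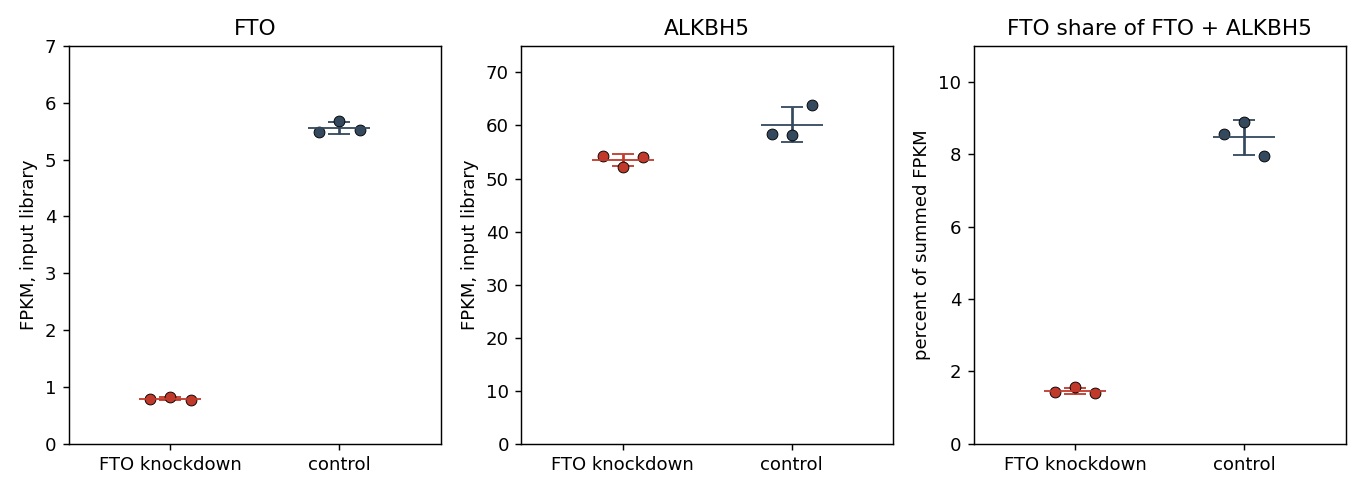
FPKM of FTO and of ALKBH5 in each input library, and the share of FTO in the summed FPKM of both genes in percent; points are libraries, horizontal lines are means and bars are SD (n = 3 each). FTO sits between 0.765 and 0.83 FPKM in knockdown and between 5.48 and 5.68 FPKM in control libraries, while the ALKBH5 values of both conditions lie between 52.2 and 63.9 FPKM.

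Genes were also ranked by how closely their profile over the 6 input libraries followed each eraser, as the root mean square difference of gene-centred log2(FPKM + 1) values. The nearest to FTO was COL6A3, a collagen VI chain, at a difference of 0.0506, where the median of all tested genes was 0.905. COL6A3 averaged 3.41 ± 0.12 FPKM in knockdown and 15.9 ± 0.287 FPKM in control cells (SD, n = 3 each). SUMF2, H6PD, PCK2 and NRN1 came next at differences of 0.248 to 0.296, with log2 changes of -1.41, -1.40, -1.35 and -1.31. Past COL6A3, the distance from FTO on this scale thus grew several-fold. FTO averaged 0.793 FPKM in knockdown cells, and its log2 change was -1.87 with 1 added and -2.66 with 0.1 added. The ranking was not run with other added values, so the nearness of COL6A3 is given for this scale only. For ALKBH5 the nearest were RPL13, a large-subunit ribosomal protein, ACADVL, an enzyme of mitochondrial fatty acid oxidation, KIAA0100, GPSM1 and FBL, the nucleolar methyltransferase fibrillarin. Their differences from ALKBH5 ran from 0.0139 to 0.0201, against a median of 0.152, and their log2 changes from -0.18 to -0.15. Their limma calls as lower were all lost when libraries were centred on their medians. Genes were picked for small differences, so log2 changes near that of the eraser follow from the picking, here and for FTO.

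FTO transcripts carried 1 strong m6A peak in both conditions, in the 5' part of the gene. Peak lists were deposited once per condition, without replicates, and the enrichment of each peak (IP relative to input, as a fold) was computed by the authors. In the knockdown list this peak had 2 exonic blocks, chr16:53825926-53826491 and chr16:53844155-53844219. In the control list it had the same last block, a longer middle block at chr16:53825864-53826491 and a further, upstream block of 27 bp at chr16:53814822-53814848. The peak thus covered 631 exonic bp in the knockdown list and 720 exonic bp in the control list. It started 121963 bp past the RefSeq start of FTO in the knockdown list and 110859 bp past it in the control list. The files annotate it to exon 4 of 10 of ENST00000636491. Its enrichment was 11.3 in the knockdown list (log10 adjusted p of -226) and 4.22 in the control list (log10 p of -539, adjusted value listed as -Inf). Within their own lists, 70.1% of knockdown peaks and 37.2% of control peaks had a lower enrichment. By p, it was stronger than 76.5% of knockdown peaks and 92.8% of control peaks.

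The remaining FTO peaks were weak by p and were not shared. The knockdown list had 1, at chr16:54040655-54040715, annotated as 3' UTR, with an enrichment of 6.47 and an adjusted p of 0.0135. The control list had 5, with enrichments from 3.31 to 9.16 and adjusted p-values from 0.012 to 0.237. In enrichment 4 of these 5 stood above the strong control peak, with 54.5% to 69.7% of the control list below them. One of these joined blocks of 40 and 21 bp, at chr16:53911445-53911484 and chr16:53923056-53923076. Another 3 lay within the last few kilobases of the RefSeq gene, at chr16:54118035-54118335, chr16:54120074-54120134 and chr16:54121543-54121663. The last, chr16:54152958-54153228, began 31017 bp past the RefSeq end of FTO and lay inside an Ensembl transcript of FTO, ENST00000637049, that is typed as subject to nonsense-mediated decay. At an adjusted p of at most 1e-05, FTO had 1 peak in each list, so the counts of 2 and 6 rest on calls of weak p. A count of 6 or more peaks was found for 4.08% of the 18074 gene models with a peak in the control list. In the knockdown list, 52.1% of the 14060 gene models with a peak had 2 or more. The whole lists held 28891 knockdown and 39492 control peaks. The FPKM of FTO, from which fragments for a peak call must come, was 7.00-fold lower in the knockdown libraries, and its part in the number of weak peaks was not tested.

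The authors' deposited table lists the strong FTO peak as differential, with more m6A after knockdown. The span is chr16:53814822-53844219, identical to the control peak. The deposited log2 value, turned to knockdown over control, was 0.71 (ratio 1.63, log10 adjusted p of -22.1). Of the named rows, 55.4% were listed as higher in knockdown, and 48.3% of rows had a larger log2 value of either sign. By adjusted p it was stronger than 90.0% of the rows. At this peak the listed m6A was higher while FTO RNA was lower, at 0.793 FPKM in knockdown against 5.56 FPKM in control cells. The part of that low input in the enrichments and in the listed value was not tested. Among differential peaks on genes whose RNA fell, 52.3% were listed as higher in knockdown, and among those on genes whose RNA rose, 67.7% were. On genes without a call the share was 60.8%, and on genes that were not tested it was 44.2%.

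ALKBH5 transcripts carried m6A peaks at both ends. The peaks at the 5' end overlap a gene on the opposite strand, AC087164, whose long non-coding transcript ENST00000577847 spans chr17:18172625-18184667 and so runs across the start of ALKBH5. In the knockdown list, a peak at chr17:18184324-18184741 was called on the ALKBH5 model but listed under AC087164 (enrichment 6.50). Its control counterpart, chr17:18184205-18184711, was named in the same way (enrichment 4.48). Conversely, a peak with blocks chr17:18178332-18178365 and chr17:18184397-18184753 was called on AC087164 but listed under ALKBH5. Its blocks were identical in both lists, at an enrichment of 7.28 in the knockdown list and 8.10 in the control list. The exchanged peaks shared 345 bp in the knockdown list and 315 bp in the control list. Strand use in the counting is not given in the sources used here, so reads from ALKBH5 and from AC087164 cannot be told apart at these positions. Listed gene and gene model differed for 21.7% of the 28891 knockdown peaks and 22.6% of the 39492 control peaks, so such exchanges are common in these files.

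One 5' peak of ALKBH5 was found in the knockdown list without a control counterpart. It had blocks of 39 bp at chr17:18183227-18183265 and of 81 bp at chr17:18183828-18183908, with an enrichment of 2.85 and a log10 adjusted p of -40. That enrichment was low, as 14.1% of the peaks of its list lay below it. The second block begins at the base where RefSeq starts ALKBH5, which is also where the listed transcript ENST00000399138 starts. The RefSeq bases of GRCh38.p14 there are shown with those at a start site of FTO, where no FTO peak lay, and with a stretch between both blocks. Capitals mark the base at the start site or, in the upstream stretch, the single match of the m6A consensus on the transcript strand.
ALKBH5 start, chr17:18183828-18183857, plus strand: Gaggagcccgctaaggagcggcgctggcgg
ALKBH5 upstream, chr17:18183636-18183665, plus strand: ggcgcggcgtgaAGACAggttgctatttga
FTO start, chr16:53704156-53704185, plus strand: Gcggtggcgaaggcggctttagtggcagca
The FTO start site used by the RefSeq promoter table lies 193 bp inside the RefSeq span of the gene, from whose first base the peak distances above were counted. Both start sites of that table read G, where 44.4% of 35116 RefSeq promoter windows have an A. The consensus was searched on both strands as the 18 words of the form NNACN whose first base is not C, whose second base is A or G and whose last base is not G. No match overlapped another. In the 300 bases around its start (250 before, 50 after), ALKBH5 had 1 word on the transcript strand and 3 on the other, and FTO had 4 on each. The 50 bases from these start sites held none on the transcript strand, where 49.6% of windows held at least 1. The ALKBH5 window ended at chr17:18183877, within the 81 bp block, and did not reach the 39 bp block. The rest of that peak was thus not searched for the consensus. FTO words at chr16:53703982-53703986 (GGACC) and chr16:53704108-53704112 (GAACT) lie upstream of the FTO start site of that table but inside the RefSeq span. The ALKBH5 window was 71% G and C with 39 CpG pairs, more than in 91.3% of windows. The FTO window was 60% G and C with 22 CpG pairs, more than in 62.3% of windows.

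The 3' peak of ALKBH5 ended in both lists at the RefSeq end of the gene, where its listed transcript ENST00000490106 ends too. It spanned chr17:18209805-18209954 in the knockdown list (150 bp, enrichment 4.68, log10 adjusted p of -102) and chr17:18209716-18209954 in the control list (239 bp, enrichment 8.19, log10 adjusted p of -230). The files place it in the 3' UTR. Peaks were called on gene models, and the part of the model's end in this shared edge was not tested. In their lists, 33.1% of knockdown peaks and 65.2% of control peaks had a lower enrichment. All ALKBH5 peaks of both lists, unlike most of those of FTO, had an adjusted p of at most 1e-05. ALKBH5 also had the far higher FPKM, and the part of that in the p-values was not tested.

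**Figure D2:**
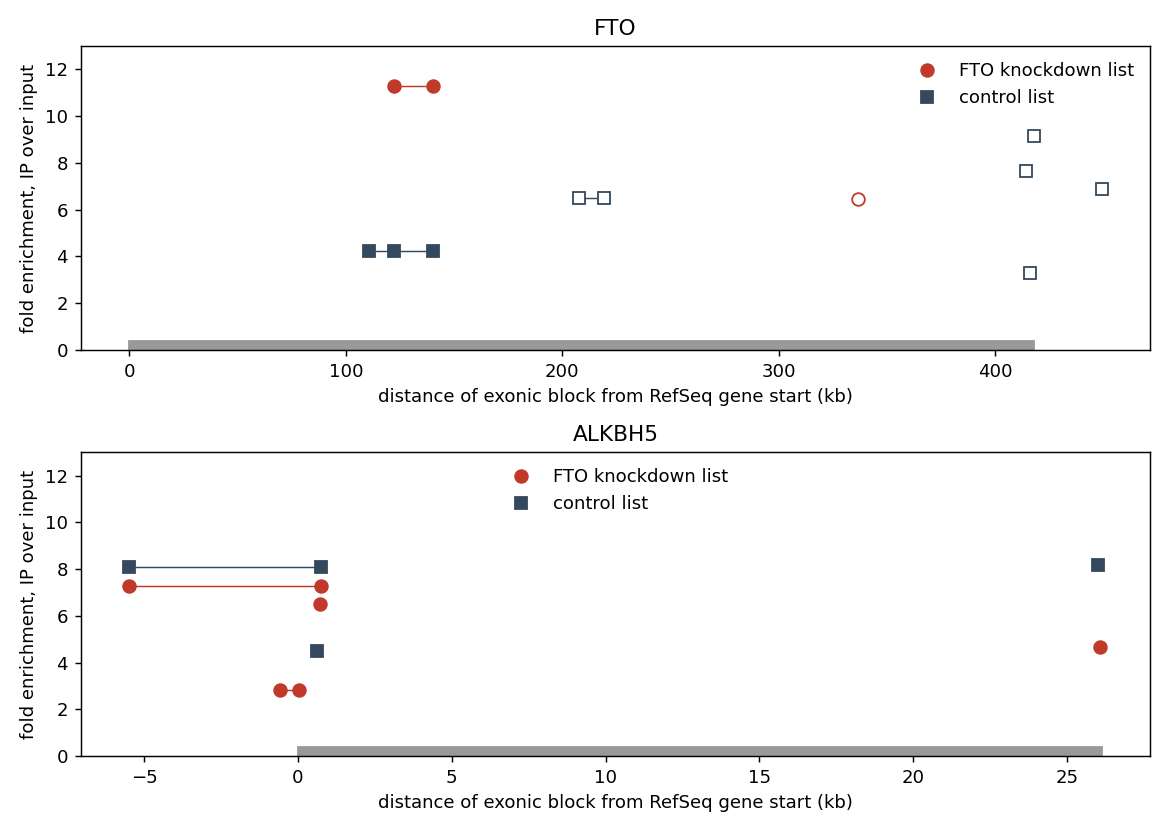
Enrichment of IP over input (vertical axis, authors' values) of each exonic block of the FTO and ALKBH5 peaks against its distance in kb from the RefSeq gene start; red circles are the knockdown list and dark squares the control list, lines join blocks of 1 peak, grey bars span the RefSeq genes, and open symbols have an adjusted p above 1e-05. The strong FTO peak stands at 11.3 in the knockdown list and 4.22 in the control list, and ALKBH5 peaks gather at both ends of the gene.

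The authors' deposited table lists the ALKBH5 peaks as changing in opposite directions. At chr17:18183078-18184027, annotated as 5' UTR, m6A was listed as higher in knockdown, with a log2 value of 1.38 (ratio 2.60, log10 adjusted p of -25.5). Only 12.1% of the named rows had a larger log2 value of either sign. The span contains 1 ALKBH5 peak of the knockdown list and 0 of the control list, and begins where the files start the ALKBH5 transcript ENST00000541285. At chr17:18209716-18209954, the 3' UTR peak, m6A was listed as lower in knockdown, with a log2 value of -0.48 (ratio 0.716, log10 adjusted p of -7.08), as were 44.6% of the named rows. The row for the peak called on AC087164, chr17:18178332-18184753, was listed as higher at a log2 value of 0.69 (log10 adjusted p of -26.1). For this span, the enrichment in the peak lists went the other way, at 7.28 in the knockdown list and 8.10 in the control list. Of 201 peaks whose span was identical in all of the tables, 8.96% had such opposite signs. Having 3 or more differential rows by listed name, with the row called on AC087164 included, set ALKBH5 among 6.72% of the 6396 genes. Of the genes with 2 or more rows, 32.4% had them in both directions.

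**Figure D3:**
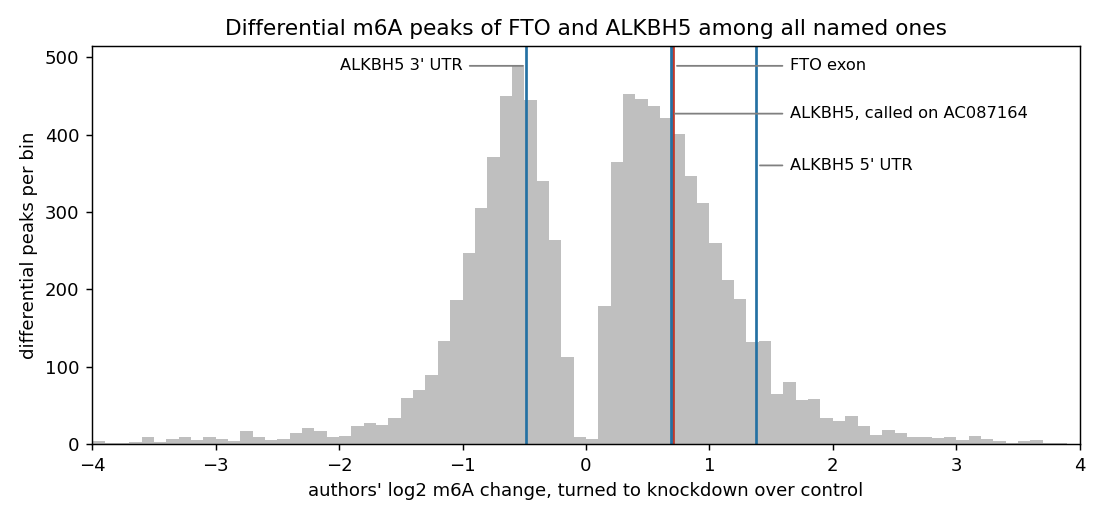
Histogram of the log2 m6A change (knockdown over control) of the 8687 named differential peaks in the authors' deposited table, with vertical lines for the FTO peak (red) and the 3 ALKBH5 peaks (blue). The ALKBH5 5' UTR peak stands at 1.38 and the 3' UTR peak at -0.48, with the other ALKBH5 peak and the FTO peak side by side at 0.69 and 0.71; 29 rows beyond 4 in size are not drawn.

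Other genes of the m6A pathway were described by lists. Of 7 further AlkB family genes, ALKBH2 and ALKBH3 had FPKM, and neither was called (limma, 0 at an adjusted or unadjusted p under 0.05). Over all tested genes, 62.4% were called at the adjusted threshold. ALKBH2, which repairs alkylated DNA, averaged 4.08 ± 0.412 FPKM in knockdown and 4.02 ± 0.127 FPKM in control cells. ALKBH3, which acts on single-stranded DNA and RNA, averaged 3.82 ± 0.198 FPKM in knockdown and 4.03 ± 0.105 FPKM in control cells (SD, n = 3 each). Both had 1 differential peak, and both peaks were listed as lower in knockdown, as were 44.6% of all named rows.

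Of 13 writer genes, 4 were tested, of which 1 rose and 2 fell, with a median log2 change of -0.11 against -0.07 for all tested genes. Over all tested genes, 24.5% rose and 37.9% fell, and the counts of this and the following lists are to be read against those shares. ZC3H13, a scaffold of the writer complex, fell to 2.72 ± 0.336 FPKM in knockdown, against 4.22 ± 0.697 FPKM in control cells (SD, n = 3 each; limma adjusted p = 0.00488). METTL16, a separate methyltransferase, fell by 0.18 on the log2 scale, a call that quantile normalization and median-centring each ended (adjusted p = 0.103 and 0.0919). RBM15B, which helps guide the complex to RNA, rose to 12.4 ± 0.479 FPKM in knockdown, against 10.4 ± 0.406 FPKM in control cells. Its paralogue RBM15 stood at 11.4 and 11.7 FPKM in knockdown and control cells without a call. The catalytic METTL3 and METTL14 had no FPKM in this table, though METTL3 had 3 peaks in each list. Of 17 reader genes, 7 were tested, 0 rose and 2 fell, with a median log2 change of -0.05 (24.5% and 37.9% over all tested genes). HNRNPC, an m6A-sensitive RNA-binding protein, fell to 55.4 ± 3.48 FPKM in knockdown, against 67.3 ± 2.06 FPKM in control cells. IGF2BP3 fell by 0.16 at an adjusted p of 0.0441, and lost its call under both other scalings and without any 1 of 4 libraries (knockdown 1 or 3, control 1 or 2). Without control library 3, 4 readers fell, and with medians centred YTHDF2, a cytoplasmic reader, passed as higher (adjusted p = 0.0181). Differential peaks on writers numbered 5 higher and 1 lower in knockdown, and on readers 6 higher and 5 lower, where 55.4% of all named rows were higher and 44.6% lower.

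Among 10 genes linked to the erasers by published reports, as partners, regulators or targets, 3 were tested and 2 rose, with a median log2 change of 0.47. SFPQ, a nuclear RNA-binding protein reported as a partner of FTO, rose to 30.3 ± 1.04 FPKM in knockdown, against 18.4 ± 0.91 FPKM in control cells (SD, n = 3 each; log2 change 0.69, limma adjusted p = 2.92e-05). FOXM1, a transcription factor whose transcript has been reported as a target of ALKBH5, rose to 69.4 ± 2.58 FPKM in knockdown, against 49.7 ± 2.67 FPKM in control cells (log2 change 0.47, adjusted p = 0.000143). Both kept their calls under quantile normalization and median-centring, and 24.5% of all tested genes were called as higher. RBM33, reported as a partner of ALKBH5, stood at 7.82 and 8.52 FPKM in knockdown and control cells without a call.

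Genes beside the erasers in the genome were listed to show what the neighbourhoods did. Of 7 neighbours of FTO, IRX3 and IRX6 were tested, and neither was called. IRX3, a homeobox gene whose enhancers lie in introns of FTO, averaged 11.6 ± 0.48 FPKM in knockdown cells, at a log2 change of -0.07 from controls (SD, n = 3; limma adjusted p = 0.19). IRX6 averaged 2.71 ± 0.292 FPKM in knockdown and 2.31 ± 0.0678 FPKM in control cells, and passed as higher under quantile normalization and under median-centring (adjusted p = 0.00409 and 0.01). RPGRIP1L, which lies head to head with FTO, had no FPKM in this table. Of 10 neighbours of ALKBH5, 4 were tested, 1 rose and 3 fell, with a median log2 change of -0.19 (24.5% and 37.9% over all tested genes). TOP3A, a DNA topoisomerase, rose by 0.17. MIEF2, SHMT1 and GID4 fell by 0.32, 0.23 and 0.15 on the log2 scale. Under quantile normalization MIEF2 and GID4 lost their calls, and under median-centring SHMT1 and GID4 did. GID4 also lost its call without knockdown library 2 or 3 or control library 1.

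**Figure D4:**
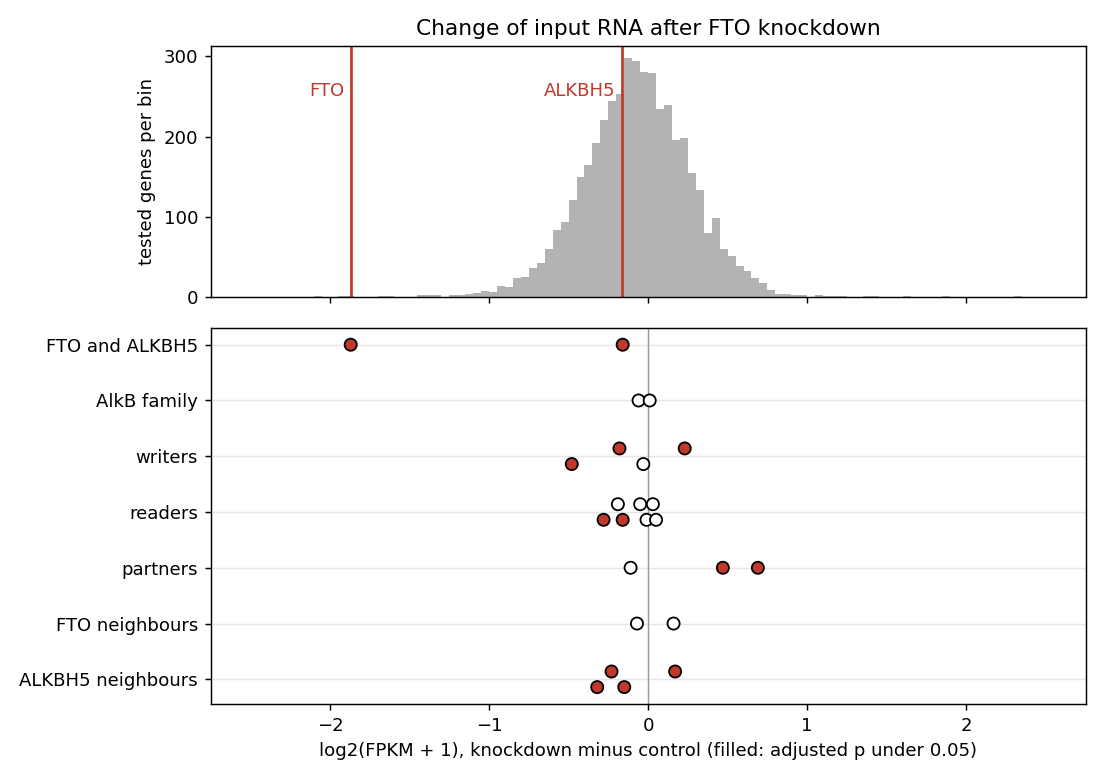
Upper panel, histogram of the change on the log2(FPKM + 1) scale (knockdown minus control) of the 4515 tested genes, with FTO and ALKBH5 as vertical lines; lower panel, the same change for each tested gene of the lists, filled where limma's adjusted p was under 0.05. FTO at -1.87 stands outside the bulk of genes, and ALKBH5 at -0.16 stands within it.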

How the data were processed

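Members and lists were chosen with earlier results of these data known. The tools listed per the submitters' processing notes, with no roles, were StringTie 1.3.0, HISAT2 2.0 and Bowtie 0.12.2; these notes also name the mouse build mm8. The peak caller is not given in the sources used here. Positions were human: of 21425 transcripts matched to RefSeq (GRCh38.p14) by symbol, 99.0% overlapped that gene, so positions are read as GRCh38, counted from 1.

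Per the file headers, the authors deposited FPKM per input library, their ratio (fc) and log2 of it with p-values and q-values, and, for differential peaks, a log2 change with a p-value and a score (log10 adjusted p). Peak lists hold, per the file headers, the fold enrichment ratio and scores (log10 p and adjusted p). The deposited log2 changes were control over knockdown and were turned round. For expression, recomputing showed it to within 1.46e-13. For m6A, Spearman's rho of the deposited value with log2(knockdown enrichment / control enrichment) was -0.832 across 201 peaks. The 283 rows without a gene name, whose m6A p lay above 1, were left out.

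FPKM were tested as log2(FPKM + 1), which understates changes of low genes, for genes averaging 1 FPKM or more, using limma 3.58.1 in R 4.3.3 (trend, two-sided, no block, Benjamini-Hochberg, threshold 0.05), checked on simulated data. Low FPKM did not fall on whole-read steps (the smallest nonzero one was 7.49e-07), so no count test was run. Peaks overlapped where exonic blocks shared at least 1 bp. Named genes were the erasers, list members, and the 5 genes with the most similar profile to each eraser. Older symbols of listed genes were counted once. Same-numbered libraries of the conditions did not deviate together. Alternatives were other pseudocounts, filters, scalings, a replicate block, leaving out each library, the authors' q-values, and stricter peak rules.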

Additional observations from a re-analysis of the deposited data

How the results depend on the processing

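FTO stayed lower in knockdown and past the threshold under every alternative that was run (log2 change between -2.81 and -1.73); at a mean of at least 5 FPKM it was not tested. ALKBH5 stayed lower throughout and lost its call after median-centring (-0.07, adjusted p = 0.288) and by the authors' q-value (-0.17, q = 0.909); leaving out 1 library each gave -0.19 to -0.12, and the call was lost without knockdown library 2. The cause was not tested. The 2819 changed genes became 1603 at a mean of at least 5 FPKM, where fewer genes were tested, and 39.3% of calls rose as deposited, 52.5% after quantile normalization, 55.4% after median-centring and 51.8% at 5 FPKM. The 2 changed readers became 1 without a filter and 1 after quantile normalization, and ranged from 1 to 4 when 1 library was left out. At an adjusted peak p of at most 1e-05, FTO had 1 peak in the knockdown and 1 in the control list. The numbers of the libraries did not pair them: same-numbered deviations had correlations of -0.0769, 0.0278 and 0.0247 across genes. With a replicate block, FTO was at -1.87 (adjusted p = 4.35e-05), ALKBH5 at -0.16 (adjusted p = 0.0191), 2747 genes changed, and writers, readers, AlkB genes, partners and neighbours had 3, 3, 0, 2 and 4 changed genes; the FTO to ALKBH5 log2 ratio was -2.64 (exact p = 0.25, the smallest that 3 pairs allow). Depth was unknown, so no counting error can be given.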
